A study of Homo sapiens with 6 samples.

Results

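The alpha-arrestins are a small family of adaptor proteins, and 5 of their genes were followed here: TXNIP, ARRDC1, ARRDC2, ARRDC3 and ARRDC4. They were found by symbol and are 5 of the 32943 genes in the deposited counts. The family was picked with results of the same comparison known, control against overexpression libraries, so its own values are given as a description, without p-values. The polyadenylated RNA came from cells whose label is AGS, the name of a gastric adenocarcinoma line of human origin, taken 48 h after plasmids were added with a lipid reagent. The 3 control libraries came from cells given a control plasmid, and the 3 overexpression libraries from cells given a pcDNA3.1 plasmid for Flag-tagged IGF2BP3. Both groups shared the line, the Ham's F-12 medium with serum and antibiotics, and the transfection. The pcDNA3.1 vector drives its insert from a viral CMV promoter, and a transient transfection reaches cells unequally. Nothing in the labels says whether replicates were separate cultures, so a p-value given for another gene covers the spread among these 6 libraries and no more, and that spread may be technical.

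IGF2BP3, an RNA-binding protein known to bind mRNAs and affect their stability and translation, was at 90.6, 102 and 100.2 CPM in the controls (read counts scaled to a common library size) and 511, 573 and 664 CPM with overexpression, the direction of the labels. Reads from the plasmid and from the cells' own gene cannot be told apart. Library totals ran from 33555366 to 37633587 counts. Control replicate 1 and overexpression replicate 3 lay farthest out on the first principal component (59.1% of the variance). The label of the cell line was checked against markers. Of 14 gastric epithelial markers, GKN1 and GKN2 were not analysed here and 10 stayed under 1 CPM in every library, among them TFF1, MUC5AC, MUC6 and CLDN18. PGC and CTSE of that list were at 3.87 and 5.68 CPM in the controls. All 15 hepatocyte markers were measured, with control means from 2.42 CPM for APOA1 to 1512 CPM for ALB, and AFP at 531 CPM. The general epithelial keratin gene KRT8 was at 5097 CPM in the controls. Most of the gastric markers thus went against the label, and the cells are called by it only as a name.

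Alpha-arrestins share the arrestin fold with the beta-arrestins of receptor signalling. Most carry PPxY motifs that recruit ubiquitin ligases of the NEDD4 family to membrane proteins, which are then ubiquitinated and taken into the cell. TXNIP is the exception in also binding reduced thioredoxin through a disulfide bond, and it is known to lower glucose uptake through GLUT1 and GLUT4. Transcription of TXNIP and ARRDC4 is known to follow glucose through MondoA and ChREBP, a pair of factors that act with MLX on carbohydrate response elements.

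In these libraries TXNIP and ARRDC4 were more than doubled with IGF2BP3 overexpression, ARRDC2 was moderately higher, ARRDC1 was lower, and ARRDC3 overlapped between the groups. The groups did not overlap for 4 of the 5 genes, against 50.6% of all genes tested. For 3 of them the overexpression libraries were higher (all genes, 25.3%) and for 1 lower (all genes, 25.4%). The edgeR quasi-likelihood test at an adjusted p under 0.05 called 4 of the 5, 3 of them higher and 1 lower. It called 37.7% of all genes, 18.5% higher and 19.2% lower. TXNIP and ARRDC4 were called and at least 2-fold higher, as were 0.473% of all genes, and 2.29% of all genes were called and at least 1.5-fold higher. Because the family was chosen on this comparison, nothing is read from these counts.

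TXNIP (ENSG00000265972.6; GRCh38 chromosome 1, 145992435 to 145996600, minus strand, protein-coding) encodes the thioredoxin-interacting protein. It was at 42.9, 51.3 and 48.8 CPM in the controls and at 119, 128 and 149.6 CPM with overexpression. Every overexpression library was above every control, and the lowest of them stood 2.31-fold above the highest control. The mean ± SD went from 47.7 ± 4.31 to 132 ± 15.96 CPM with 3 libraries in each group. That is 2.77-fold, or 1.47 ± 0.09 (SE) as a log2 fold change. Only 14 of the 17747 genes tested had a larger positive fold change. The values rest on 1526 to 5572 raw reads per library. Without control replicate 1 and overexpression replicate 3 the log2 fold change was 1.30 ± 0.04. Overexpression replicate 3 held both the highest TXNIP and the highest IGF2BP3 level, and control replicate 1 both the lowest.

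ARRDC4 (ENSG00000140450.9; GRCh38 chromosome 15, 97960698 to 97973838, plus strand, protein-coding) encodes the relative of TXNIP that is also known to respond to glucose. It was the least abundant of the 5 in reads, with 155 to 400 per library. Its levels were 4.498, 4.63 and 4.38 CPM in the controls and 8.699, 9.18 and 10.7 CPM with overexpression, again without overlap and again highest in overexpression replicate 3. The coefficient of variation was 2.78% in the controls and 11.2% with overexpression. The mean went from 4.503 ± 0.125 to 9.54 ± 1.07 CPM, which is 2.12-fold and a log2 fold change of 1.08 ± 0.11. On the log2(FPKM + 1) scale, which compresses genes of low level, the difference was 0.65.

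ARRDC2 (ENSG00000105643.11; GRCh38 chromosome 19, 18001132 to 18014102, plus strand, protein-coding), whose transcription is known to follow nutrient and hormone signals in other tissues, was at 8.07, 8.39 and 9.98 CPM in the controls. With overexpression it was at 12.4, 11.01 and 11.3 CPM. The groups stayed apart by a small step, the lowest overexpression value being 1.103 times the highest control value. The mean went from 8.81 ± 1.02 to 11.6 ± 0.712 CPM, a log2 fold change of 0.39 ± 0.10. Here overexpression replicate 1, not 3, was highest. AC020904.3, a gene annotated within its span, was at no more than 0.187 CPM in any library.

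ARRDC1 (ENSG00000197070.14; GRCh38 chromosome 9, 137605654 to 137615360, plus strand, protein-coding) encodes the adaptor that binds TSG101 at the plasma membrane and drives budding of small vesicles. It stood at 44.8, 42.7 and 45.4 CPM in the controls and at 34.2, 36.4 and 29.5 CPM with overexpression. All overexpression values lay under all control values, with overexpression replicate 3 lowest. The mean went from 44.3 ± 1.41 to 33.4 ± 3.49 CPM, a log2 fold change of −0.41 ± 0.07. Its antisense neighbour ARRDC1-AS1 shares 29 bases with the 3′ end of ARRDC1 on the other strand, and it was lower too, from 15.4 ± 1.62 to 12.5 ± 1.05 CPM (log2 fold change −0.30 ± 0.09, adjusted p = 0.0254). That call ended in 7 of the 19 alternatives: without control replicate 1, without overexpression replicate 1, without overexpression replicate 3, without control replicate 1 and overexpression replicate 3 together (−0.19 ± 0.09), on both FPKM scales and at a threshold of 0.01 (adjusted p 0.0152 to 0.104 over the 19 alternatives, which include edgeR, DESeq2 and limma). The library kit kept the strand, but no source used here says whether the counting did, so reads in the shared bases cannot be assigned to either gene. A same-strand transcript that spans the locus, AL590627.2, was at no more than 0.134 CPM in any library.

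ARRDC3 (ENSG00000113369.9; GRCh38 chromosome 5, 91368724 to 91383359, minus strand, protein-coding) encodes an adaptor known to act on integrin beta4. It was at 31.6, 40.3 and 35.4 CPM in the controls and at 30.8, 29.5 and 32.3 CPM with overexpression. The groups overlapped only through control replicate 1, which lay among the overexpression values, while the other controls were above them all. The means were 35.7 ± 4.34 and 30.9 ± 1.44 CPM, with a log2 fold change of −0.21 ± 0.08. Without control replicate 1 it was −0.29 ± 0.07 and past the threshold, as in 6 of the 19 alternatives in all. Without control replicate 2 it was −0.12 ± 0.08, and without control replicate 1 and overexpression replicate 3 together −0.33 ± 0.06. ARRDC3-AS1, which overlaps it by 3011 bases on the opposite strand, was at no more than 0.777 CPM in any library. ARRDC5, the remaining gene of the family, was not analysed here.

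**Figure D1:**
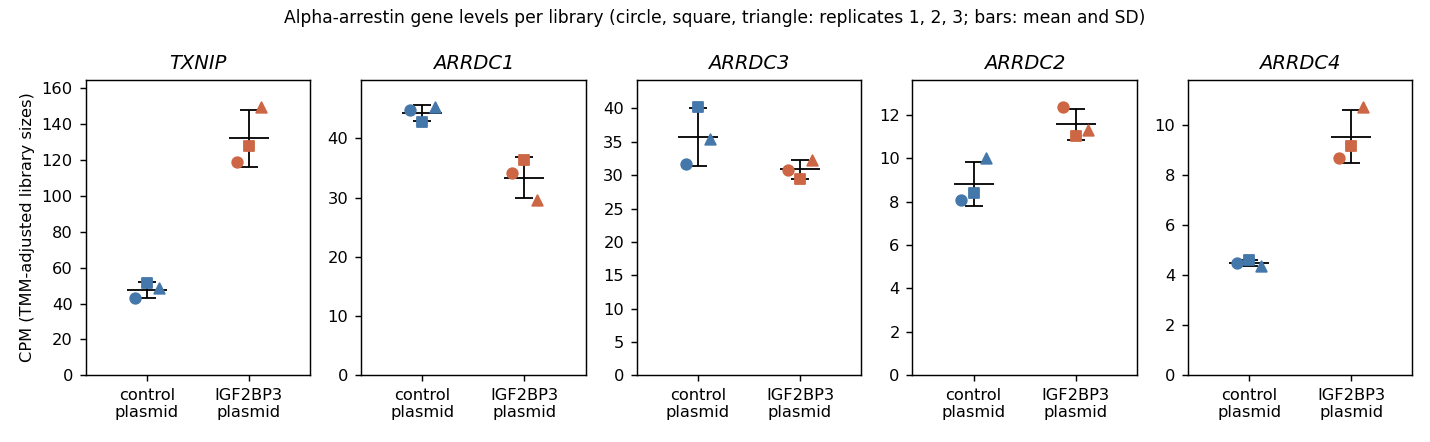
CPM of each alpha-arrestin gene in the 3 control libraries (blue) and the 3 IGF2BP3 libraries (orange), on linear axes from 0 that differ between panels, with mean and SD. TXNIP and ARRDC4 sit apart between the groups, from 51.3 to 119 CPM and from 4.63 to 8.70 CPM at the closest, while ARRDC3 overlaps through control replicate 1.

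**Figure D2:**
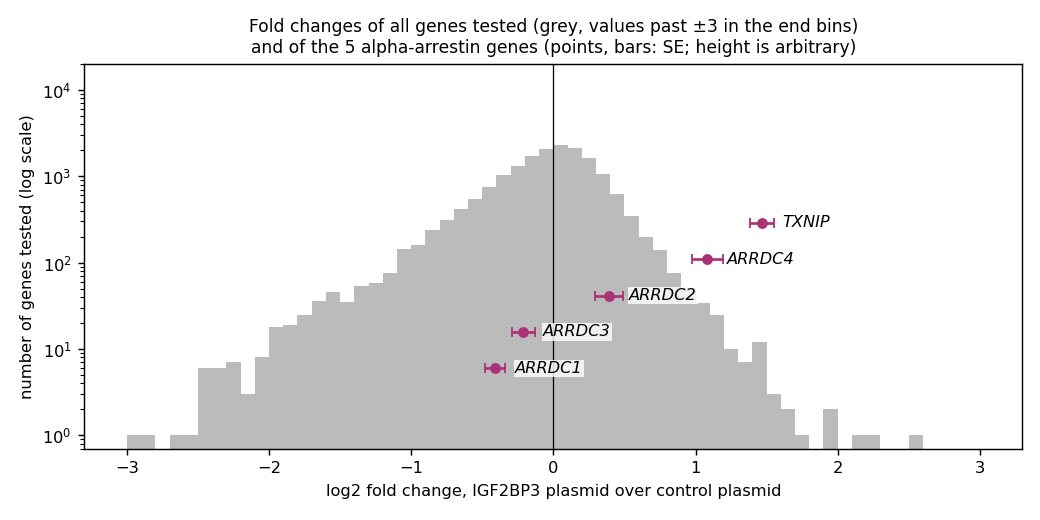
Number of genes tested at each log2 fold change (grey, log axis) with the 5 alpha-arrestin genes as points with SE. TXNIP at 1.47 and ARRDC4 at 1.08 lie in the sparse right tail, and ARRDC1, ARRDC2 and ARRDC3 lie within the bulk.

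Sequences upstream of TXNIP and ARRDC4 are shown because these were the family's largest increases and both are known glucose-responsive genes. The RefSeq promoter table (GRCh38.p14) holds 8 windows for the 5 genes, each from 250 bases before to 50 bases after a start site. They were searched on both strands for CACGTG, for CACGNG followed after 5 bases by a second CACGNG (the paired letters of a carbohydrate response element, in which N is any base), for CCAAT and for the forkhead letters TGTTTAC. In the stretches below, written 5′ to 3′ on the gene's strand, capitals mark the paired letters or CACGTG, and CCAAT or its reverse complement ATTGG.
TXNIP, chr1:145996631-145996739, minus strand, 160 to 52 bases before the start: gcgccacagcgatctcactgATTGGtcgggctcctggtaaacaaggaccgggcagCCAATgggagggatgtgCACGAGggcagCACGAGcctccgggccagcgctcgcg
ARRDC4, chr15:97960473-97960660, plus strand, 230 to 43 bases before the start: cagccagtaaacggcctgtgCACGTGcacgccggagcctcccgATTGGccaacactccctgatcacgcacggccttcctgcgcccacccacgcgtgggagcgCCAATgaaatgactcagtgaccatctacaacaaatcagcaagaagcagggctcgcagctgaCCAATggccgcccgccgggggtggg

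The paired letters occurred in TXNIP, beginning 88 bases before the start, and in 20 of 35116 promoter windows (0.05695%). No window of the other 4 genes held them in this exact spacing. ARRDC4 had CACGTG beginning 210 bases before its start, letters found in 7.26% of windows, and the other 4 genes did not have it. CCAAT was found 2 times in the first TXNIP window, 3 times in ARRDC4 and 1 time each in ARRDC1, in 1 of 2 windows of ARRDC2 and in 1 of 2 windows of ARRDC3, against 34.6% of all windows. TGTTTAC was present in TXNIP, as GTAAACA 124 bases before the start, and in the downstream window of ARRDC3 (3.42% of all windows). Of 16 tested genes whose windows hold the paired letters, TXNIP left out, 4 were called higher and 3 lower. Their median log2 fold change was 0.003. The other letters were counted with the 5 genes left out. Of 1432 tested genes with CACGTG 25.8% were higher and 18.7% lower. Of 5011 with CCAAT 20.1% were higher and 22.6% lower, and of 438 with TGTTTAC 19.9% and 23.3%. Over all 11695 tested genes with a window, 22.1% were higher and 20.1% lower, with a median of 0.01. A match of letters is a description and says nothing about binding in these cells.

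Levels of different genes were compared per length, in the authors' FPKM (fragments per kilobase of gene and per unit of sequencing depth). In the controls TXNIP was at 9.66, 11.9 and 11.5 FPKM and ARRDC1 at 9.6, 9.46 and 10.2 FPKM, and their ranges overlapped. ARRDC3 followed at 5.15, 6.78 and 6.02 FPKM. ARRDC2 was at 1.41, 1.52 and 1.83 FPKM and ARRDC4 at 0.900, 0.960 and 0.910 FPKM. From ARRDC1 down, each gene's lowest control value lay above the next gene's highest.

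With overexpression TXNIP was at 28.1, 30.4 and 36.5 FPKM, well clear of ARRDC1 at 7.7, 8.24 and 6.85 FPKM. ARRDC3 was at 5.27, 5.07 and 5.7 FPKM, still under ARRDC1 in every library. ARRDC2, at 2.28, 2.04 and 2.14 FPKM, and ARRDC4, at 1.83, 1.94 and 2.33 FPKM, now overlapped. Among genes tested, TXNIP moved from the 80.9 to the 92.8 percentile of mean FPKM and ARRDC4 from the 34.01 to the 48.2 percentile.

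The make-up of the family's RNA thus differed between the groups mainly through TXNIP. Its share of the 5 genes' summed FPKM was 36.2, 38.96 and 37.8% in the controls and 62.2, 63.8 and 68.2% with overexpression, or 37.6 ± 1.41% in the controls and 64.7 ± 3.12% with overexpression. The ARRDC1 share was 33.4 ± 2.54% and 15.7 ± 2.52%. Summed over ARRDC1 to ARRDC4 alone, the level was 17.1, 18.7 and 18.9 FPKM in the controls and 17.1, 17.3 and 17.02 FPKM with overexpression, so that control replicate 1 lay among the overexpression values. Fewer cells expressing a gene and less RNA per cell cannot be told apart in bulk libraries.

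**Figure D3:**
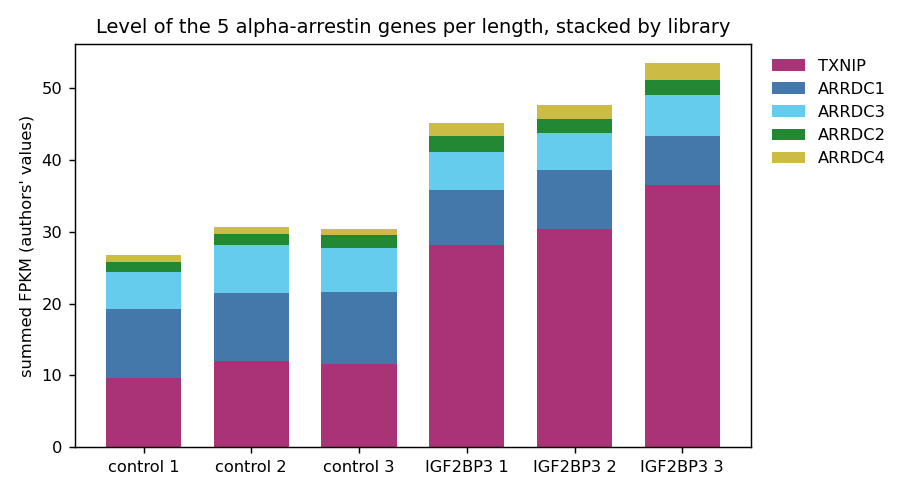
Authors' FPKM of the 5 genes stacked for each library, from 0. The TXNIP block grows from at most 11.95 FPKM in the controls to at least 28.1 FPKM with IGF2BP3, and the other 4 blocks together stay between 17.02 and 18.92 FPKM.

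Genes with values most like TXNIP were ranked by the root mean square difference of log2 CPM, relative to the control mean, over the 6 libraries. The ranking covered 11139 tested genes with a symbol and a mean of at least 5 CPM over all 6 libraries. HDAC9, SOCS2-AS1, FOSL1 and ARRDC4 had control means of 3.05, 3.24, 4.73 and 4.50 CPM and passed this floor only through the overexpression libraries. ERVK13-1 passed it only through the controls (5.47 CPM, against 4.78 CPM with overexpression). The closest was AKAP12, a scaffold of protein kinase A, with a difference of 0.0874 and 10.3, 11.9 and 11.2 CPM in the controls against 24.7, 27.4 and 35.9 CPM with overexpression. The histone deacetylase gene HDAC9, the AP-1 subunit gene FOSL1, SOCS2-AS1 and the corepressor gene TLE3 followed at 0.219 to 0.265, and ARRDC4 was the sixth at 0.285. The genes nearest to ARRDC4 were TLE3 (0.0674), SOCS2-AS1 (0.0759) and BIRC3, an inhibitor of apoptosis (0.0832, 9.89 ± 0.861 to 20.3 ± 2.41 CPM). Nearest to ARRDC3 were ERVK13-1, ITGA2 and GRAMD2B, with differences of 0.0477 to 0.04898, none of them past the threshold in the main fit. ITGA2 gained a call in 4 of the 19 alternatives, GRAMD2B in 1 and ERVK13-1 in 0. SOCS2-AS1 is antisense to SOCS2 and uncertain for lack of a known strand setting. The 6 libraries share their split into 2 groups. Under 3 other scalings the ranking held the same genes, but that outcome was fixed in advance. A library's scaling factor cancels in the difference between 2 genes, and the genes ranked were those of the main scaling. The ranking was not repeated on the log2(FPKM + 1) scale. There the log2 fold change went from 1.40 to 0.91 for AKAP12 and from 1.20 to 0.23 for HDAC9. For SOCS2-AS1 it went from 1.16 to 0.58 and for TLE3 from 1.11 to 0.39, while TXNIP was at 1.44. FOSL1 was at no less than 0.966 in any alternative.

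**Figure D4:**
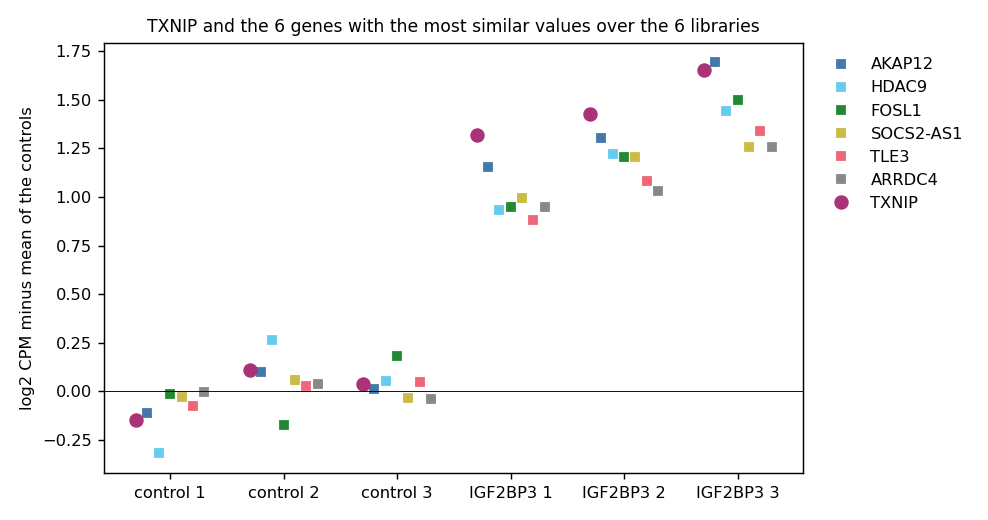
Log2 CPM minus the control mean in each library for TXNIP (large circles) and the 6 genes closest to it (squares). AKAP12 tracks TXNIP at 0.0874 root mean square difference, and ARRDC4 runs lower in each IGF2BP3 library.

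The surroundings of the family were described with 12 lists of genes that sense glucose or hormones, bind TXNIP or act with alpha-arrestins. In the union of these lists and ARRDC5, 137 of 149 genes could be tested, and 39 were higher and 37 lower, a median log2 fold change of 0.02. Over all genes tested the median was −0.01, with 18.5% higher and 19.2% lower. On the log2(FPKM + 1) scale limma gave 39 higher and 22 lower in the lists, beside 3416 higher (19.2%) and 2453 lower (13.8%) over all genes. Adjusted p below are from edgeR's quasi-likelihood test over all genes, and values are means ± SD of 3 libraries and log2 fold changes ± SE.

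Of the 13 genes of the MondoA, ChREBP and MAX network, which hold the factors that activate TXNIP and their partners and competitors, 4 rose and 3 fell (median 0.06). MLXIP, which encodes MondoA, had means from 42.05 ± 1.69 to 43.7 ± 2.43 CPM and no call (0.06 ± 0.06, adjusted p = 0.482). MLXIPL, which encodes ChREBP, fell from 10.6 ± 0.716 to 7.23 ± 0.406 CPM (−0.55 ± 0.09, adjusted p = 6.38e-04). MYC rose from 67.5 ± 2.01 to 121 ± 9.19 CPM (0.84 ± 0.06, adjusted p = 2.14e-06) and MYCN fell from 4.6 ± 0.224 to 1.31 ± 0.243 CPM (−1.81 ± 0.16, adjusted p = 8.07e-06). On the log2(FPKM + 1) scale MYCN was at −0.78 ± 0.06 and MLXIPL at −0.30 ± 0.06, both still past the threshold. The MAX-binding repressor gene MGA rose from 39.2 ± 2.09 to 52.7 ± 2.99 CPM (0.43 ± 0.06, adjusted p = 2.22e-04), while MXD4, at −0.16 ± 0.06, did not pass (adjusted p = 0.0631).

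TXNIP and ARRDC4 are known targets of MondoA. Of 13 other tested genes known as MondoA or ChREBP targets, 2 rose and 5 fell, with a median of −0.18. KLF10, a repressor induced by glucose and by TGF-beta, rose from 55.2 ± 7.53 to 69.6 ± 3.57 CPM (0.34 ± 0.08, adjusted p = 0.00808), and by 0.19 ± 0.05 without control replicate 1 and overexpression replicate 3. The other one that rose was the hexokinase gene HK2 (0.22 ± 0.07, adjusted p = 0.0284, named after its value was seen). HK2 did not pass at 0.01, and its call was not followed through the other alternatives. PFKFB3, which makes the activator of phosphofructokinase, fell from 22.5 ± 0.818 to 13.1 ± 0.838 CPM (−0.78 ± 0.07, adjusted p = 1.16e-05), and was at −0.51 ± 0.06 on the log2(FPKM + 1) scale. The lipogenic enzyme genes FASN (340.0 ± 9.54 to 252 ± 14.7 CPM, −0.43 ± 0.05, adjusted p = 3.24e-05) and ACLY (187 ± 2.43 to 164 ± 1.63 CPM, −0.18 ± 0.04, adjusted p = 0.00311) fell as well. ELOVL6 (−0.12 ± 0.07) and PFKFB2 (0.26 ± 0.10) had no call.

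FOXO factors and targets were included because TXNIP and other alpha-arrestin genes are known to be controlled by insulin signalling. Of 17 tested 2 rose and 7 fell (median −0.31). The factor FOXO3 rose from 29.2 ± 0.742 to 37.3 ± 2.83 CPM (0.35 ± 0.07, adjusted p = 0.00135). Among targets CCNG2, an atypical cyclin, fell from 8.15 ± 0.524 to 5.22 ± 0.313 CPM (−0.64 ± 0.10, adjusted p = 4.38e-04) and YPEL3 from 14.5 ± 1.92 to 6.28 ± 2.44 CPM (−1.20 ± 0.21, adjusted p = 9.08e-04). The insulin receptor gene INSR fell from 93.9 ± 1.63 to 71.8 ± 2.43 CPM (−0.39 ± 0.05, adjusted p = 7.24e-05). On the log2(FPKM + 1) scale CCNG2 was at −0.25 ± 0.05. IRS2 (0.13 ± 0.06) and the cell cycle inhibitor gene CDKN1B (−0.13 ± 0.06) had no call.

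The glucocorticoid receptor and its known targets went up for 7 of 12 genes and down for 2, with a median of 0.20. The phosphatase gene DUSP1 rose from 309 ± 9.85 to 449 ± 12.1 CPM (0.54 ± 0.04, adjusted p = 2.72e-06), CEBPD from 97.9 ± 1.86 to 137 ± 9.99 CPM (0.48 ± 0.05, adjusted p = 4.28e-05) and the metallothionein gene MT2A from 68.8 ± 3.66 to 97.97 ± 7.26 CPM (0.51 ± 0.06, adjusted p = 7.06e-05). TSC22D3, the glucocorticoid-induced leucine zipper, rose from 20.4 ± 1.88 to 30.2 ± 1.14 CPM (0.57 ± 0.08, adjusted p = 1.21e-04). PER1 (0.10 ± 0.05) and KLF9 (0.06 ± 0.08) had no call. DUSP1, CEBPD and MT2A also respond to many other signals.

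In the thioredoxin system, which TXNIP inhibits, 6 of 22 genes rose and 8 fell (median −0.10). The reductase gene TXNRD1 rose from 196 ± 14.1 to 306 ± 31.4 CPM (0.64 ± 0.07, adjusted p = 3.37e-05) and GLRX3, a glutaredoxin of iron-sulfur handling, from 146 ± 3.76 to 192 ± 2.79 CPM (0.40 ± 0.04, adjusted p = 2.05e-05). TXN, the binding partner of TXNIP, named after its value was seen, rose from 417 ± 3.8 to 461 ± 9.04 CPM (0.15 ± 0.04, adjusted p = 0.0065). Falls included the peroxiredoxin gene PRDX2 (299 ± 15.5 to 215 ± 19.6 CPM, −0.48 ± 0.06, adjusted p = 1.19e-04) and the methionine sulfoxide reductase gene MSRB1 (60.7 ± 3.71 to 43.0 ± 2.996 CPM, −0.50 ± 0.06, adjusted p = 1.05e-04). PRDX4 (−0.06 ± 0.04) and the ribonucleotide reductase gene RRM1 (−0.11 ± 0.04) had no call. Of the 6 peroxiredoxin genes 5 fell, PRDX1, PRDX2, PRDX3, PRDX5 and PRDX6, counted after their values were seen (all genes, 19.2% lower). PRDX1 was at −0.15 ± 0.04, PRDX3 at −0.28 ± 0.04 and PRDX6 at −0.27 ± 0.05. PRDX5, at −0.16 ± 0.05 (adjusted p = 0.0284), did not pass at 0.01. Apart from PRDX2, the calls of these genes were not followed through the alternatives.

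Among the NEDD4-family ligases and their adaptors, the enzymes that alpha-arrestins recruit, 4 of 11 rose and 1 fell (median 0.15). ITCH, the ligase known to mark TXNIP for degradation, had means from 259 ± 2.76 to 263 ± 2.52 CPM and no call (0.02 ± 0.04, adjusted p = 0.663). NEDD4 rose from 14.04 ± 2.19 to 20.3 ± 2.28 CPM (0.53 ± 0.11, adjusted p = 0.00281) and SMURF1 from 83.4 ± 0.752 to 104 ± 7.501 CPM (0.32 ± 0.06, adjusted p = 7.92e-04), whereas NEDD4L fell from 122 ± 5.31 to 103 ± 2.38 CPM (−0.24 ± 0.05, adjusted p = 0.00205). The adaptor gene NDFIP1 rose from 139 ± 6.701 to 154 ± 4.39 CPM (0.15 ± 0.05, adjusted p = 0.0273), a call lost without control replicate 1, control replicate 3 or overexpression replicate 1 and under upper quartile scaling (0.00434 to 0.0924 as adjusted p over the alternatives). NDFIP2 (0.13 ± 0.07) had no call. The call of NEDD4L ended on the FPKM scale (3.43e-08 to 0.117 as adjusted p over the alternatives).

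The ESCRT machinery, which sorts ubiquitinated cargo and with which ARRDC1 buds vesicles, had 6 of 19 genes higher and 2 lower (median 0.03). TSG101, the ARRDC1 partner, named after its value was seen, had means from 106 ± 4.11 to 107 ± 2.56 CPM and no call (adjusted p = 0.839). VPS37B rose from 47.2 ± 0.853 to 56.9 ± 2.04 CPM (0.27 ± 0.05, adjusted p = 0.00133) and STAM from 18.5 ± 0.925 to 23.01 ± 1.47 CPM (0.31 ± 0.07, adjusted p = 0.0053). CHMP2A fell from 85.9 ± 2.55 to 72.97 ± 2.25 CPM (−0.23 ± 0.05, adjusted p = 0.00258) and MVB12B from 20.8 ± 0.519 to 16.97 ± 1.15 CPM (−0.29 ± 0.07, adjusted p = 0.00675), the latter without a call on the FPKM scale (0.00335 to 0.0617 as adjusted p over the alternatives). CHMP2B (0.09 ± 0.05) and CHMP4B (0.05 ± 0.04) had no call.

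Of 10 tested genes for proteins known as cargo or interaction partners of alpha-arrestins, 1 rose and 5 fell (median −0.28). SLC2A1, which encodes the glucose transporter GLUT1, had means from 36.8 ± 3.301 to 37.8 ± 0.929 CPM and no call (0.04 ± 0.07, adjusted p = 0.694). SLC2A3, which encodes GLUT3, fell from 3.79 ± 0.843 to 1.21 ± 0.4604 CPM (−1.64 ± 0.25, adjusted p = 2.93e-04), and by 0.38 ± 0.06 on the log2(FPKM + 1) scale. NOTCH1 fell from 56.2 ± 2.04 to 40.8 ± 0.442 CPM (−0.46 ± 0.05, adjusted p = 3.46e-05) and ITGB4, an ARRDC3 cargo, from 10.7 ± 0.495 to 8.26 ± 0.826 CPM (−0.37 ± 0.10, adjusted p = 0.00974), the latter at an adjusted p of 0.051 with limma on log2(FPKM + 0.1) (0.00527 to 0.0509 as adjusted p over the alternatives). EGFR was at 0.17 ± 0.06 and just missed the threshold (adjusted p = 0.0503).

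Relatives with an arrestin fold outside the family were also measured. Of the beta-arrestin genes ARRB1 fell from 19.8 ± 0.547 to 16.96 ± 0.942 CPM (−0.22 ± 0.07, adjusted p = 0.027), a call lost in 8 of 19 alternatives, among them leaving out any 1 control or overexpression replicate 2 (0.0121 to 0.178), and ARRB2 was at 0.03 ± 0.05 (adjusted p = 0.637). The visual arrestin genes SAG and ARR3 had too few reads to be tested. Of the VPS26 genes VPS26A rose from 85.5 ± 6.39 to 99.4 ± 2.18 CPM (0.22 ± 0.06, adjusted p = 0.00979). VPS26B fell from 36.6 ± 0.811 to 31.6 ± 0.858 CPM (−0.21 ± 0.06, adjusted p = 0.0096), with no call on the FPKM scale (0.00265 to 0.0828 as adjusted p over the alternatives), and VPS26C was at 0.11 ± 0.06 without a call.

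AMPK, the energy sensor that is known to phosphorylate TXNIP and mark it for degradation, and its activators had 5 of 12 tested genes higher and 2 lower (median 0.08). CAB39, a scaffold of the upstream kinase LKB1, rose from 76.9 ± 7.48 to 106 ± 8.61 CPM (0.46 ± 0.07, adjusted p = 5.10e-04) and its paralog CAB39L from 7.37 ± 0.285 to 9.52 ± 0.131 CPM (0.37 ± 0.09, adjusted p = 0.00516). The beta subunit genes PRKAB1 (29.99 ± 0.674 to 36.3 ± 1.55 CPM, 0.27 ± 0.06, adjusted p = 0.00294) and PRKAB2 (15.8 ± 0.223 to 20.4 ± 1.45 CPM, 0.37 ± 0.07, adjusted p = 0.00182) rose. The catalytic subunit gene PRKAA1 (0.05 ± 0.06) and STRADB (0.06 ± 0.05) had no call. Of the NLRP3 inflammasome, a known TXNIP partner complex, NLRP3 was not analysed here, and PYCARD and IL1B had too few reads. GSDMD fell from 63.2 ± 1.28 to 50.03 ± 5.15 CPM (−0.34 ± 0.07, adjusted p = 0.00223) and IL18 rose from 381 ± 16.9 to 422 ± 22.6 CPM (0.15 ± 0.05, adjusted p = 0.0301), the latter with a call lost without control replicate 1, control replicate 3 or overexpression replicate 1 and under upper quartile scaling (4.79e-04 to 0.121 as adjusted p over the alternatives). NEK7 (0.16 ± 0.12) and CASP1 (−0.10 ± 0.11) had no call.

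**Figure D5:**
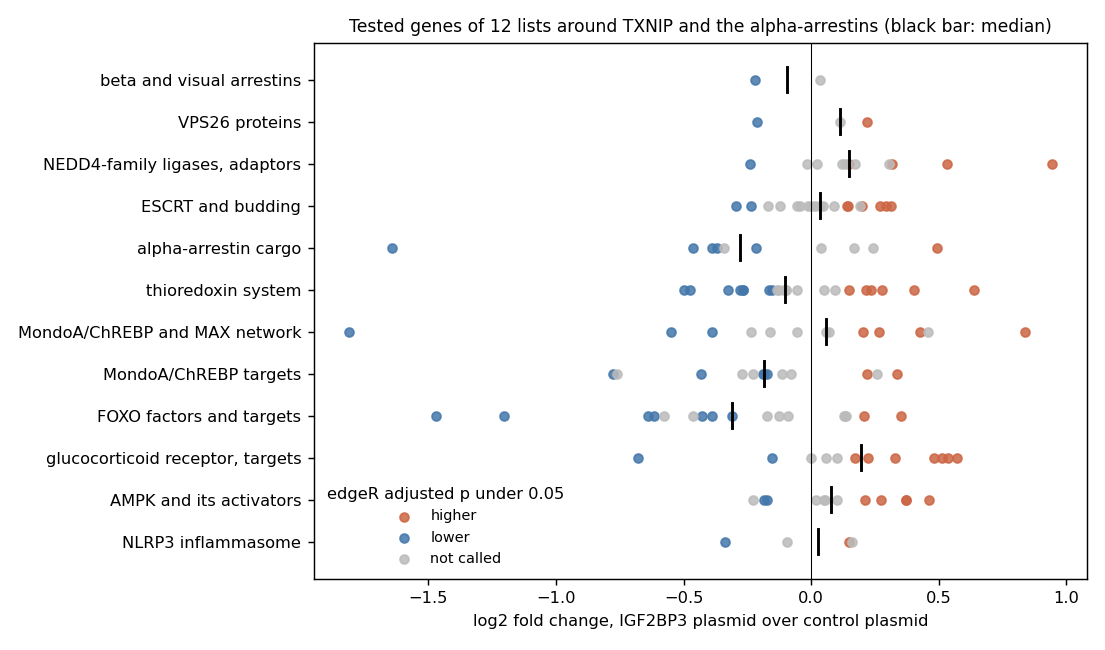
Log2 fold change of each tested gene in the 12 lists, colored by its edgeR call, with the list's median as a black bar. Medians range from −0.31 for FOXO factors and targets to 0.20 for the glucocorticoid receptor and its targets.

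Markers of other cell types also moved with the groups. All 15 hepatocyte markers fell, and their summed level was 5129 to 5430 CPM in the controls and 2996 to 3373 CPM with overexpression. Fibroblast markers fell for 4 of 6 tested and summed to 211 to 221 CPM in the controls and 121 to 135 CPM with overexpression. LUM alone had a control mean of 164 CPM. Of the 8 markers listed, 4 stayed under 1 CPM in every library, DCN, PDGFRB, ACTA2 and THY1, with THY1 near 0 throughout. Leukocyte markers fell for 2 of 3 tested, CD14 and LYZ, and summed to 76.7 to 83.4 CPM in the controls and 28.2 to 38.3 CPM with overexpression, while the defining PTPRC and CD3E stayed under 1 CPM. Gastric markers fell for 1 of 4 tested and summed to 9.81 to 12.4 CPM in the controls and 6.45 to 7.91 CPM with overexpression. Intestinal markers fell for 3 of 4 tested and summed to 455 to 471 CPM in the controls and 376 to 382 CPM with overexpression. General epithelial markers fell for 2 of 6, EPCAM and CDH1, and summed to 9786 to 10260 CPM in the controls and 8868 to 10243 CPM with overexpression, so that the groups overlapped. Endothelial markers summed to less than 1 CPM in every library. Their part in the values of TXNIP and the ARRDC genes was not tested.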

How the data were processed

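PolyA RNA of 6 libraries was sequenced, 3 per group. The authors deposited raw counts per gene and FPKM rounded to 2 decimals. HISAT2, DESeq2 and GRCh38 are named per the submitters' processing notes, without versions or roles. The counter, its annotation and its strand setting were not stated in the labels. Genes kept by filterByExpr (minimum count 10, minimum total 15) numbered 17747 of 32943. They were scaled by TMM and tested with edgeR 4.0.16 (quasi-likelihood, R 4.3.3), with Benjamini-Hochberg adjusted p under 0.05 as the threshold. CPM use TMM-adjusted library sizes, and each SE is the log2 fold change over the root of F. Limma 3.58.1 and DESeq2 1.42.0 were alternatives. edgeR, DESeq2 and limma-voom were run on simulated data in which far fewer genes changed than were called here. That run therefore does not check them in the setting of these libraries. Positions are from GENCODE 29 (GRCh38), found by Ensembl ID with the version dropped.

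The family, gene lists and tests were chosen with earlier results of these data known. Named were the 5 genes, IGF2BP3, the antisense partners, up to 4 called genes of smallest p and 2 uncalled genes of highest mean CPM per list, and the genes most like TXNIP (6), ARRDC4 (3) and ARRDC3 (3). Others are marked as named after their values were seen, and their calls were not followed gene by gene through the alternatives. Deposited FPKM served for levels between genes and, with pseudocounts of 1 and 0.1, as an alternative. Protein sequences were not used here. A few single genes of the lists are not reported here.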

Additional observations from a re-analysis of the deposited data

How the results depend on the processing

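TXNIP, ARRDC2 and ARRDC4 were called higher and ARRDC1 lower in all 19 alternatives, which changed scaling, filter, tool, unit, threshold, block or libraries. Over all genes, these alternatives called 11.4 to 21.6% higher and 10.2 to 22.6% lower. They reuse the same 6 libraries and the family was chosen on this comparison, so nothing is read from these calls either. The log2 fold change over these ran from 1.30 to 1.55 for TXNIP, 0.65 to 1.15 for ARRDC4, 0.29 to 0.49 for ARRDC2, −0.47 to −0.32 for ARRDC1 and −0.33 to −0.12 for ARRDC3, whose value nearest 0 came without control replicate 2. The lowest TXNIP value, 1.30, came without control replicate 1 and overexpression replicate 3 together, and the lowest ARRDC4 value, 0.65, from log2(FPKM + 1), whose pseudocount compresses low genes. With ARRDC3 counted, 2 family genes were lower under upper quartile scaling, with no filter, with a filter at a mean of 1 CPM, with the replicate block and without both of those libraries; leaving out 1 library gave 1 to 2. At an adjusted p under 0.01, 2090 genes were higher and 2203 lower, and 23 list genes were higher. On the log2(FPKM + 1) and log2(FPKM + 0.1) scales 22 and 21 list genes were lower, against 37, and over all genes 2453 and 2468, against 3410. The cause of these differences was not tested. Of 48 named genes outside the family with a call, 40 kept it in every alternative run, none reversed, and 13 of 26 uncalled genes gained one in at least 1 alternative. On log2(FPKM + 1) the fold of 16 of these 48 genes shrank by over 1.5 times.

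The labels do not say whether replicate numbers pair the samples, and they were not treated as pairs in the main fit. Deviations from the group means correlated at 0.09, −0.04 and 0.08 between libraries of the same number. Not every library correlated best with its own number. With 3 libraries per group these correlations cannot show that pairing is absent. With the replicate block 3339 genes were higher and 3509 lower. ARRDC4 rests on the fewest reads of the family, 155 to 400 per library.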
